A study of Mus musculus with 4 samples.

Results

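Neuropeptide and granin genes were followed across 2 Stra8 knockout (KO) and 2 wild-type (WT) mouse libraries. The set was fixed by gene symbol, as 33 neuropeptide precursor genes and 6 genes of the granin family, and all 39 symbols were found among the 55414 gene identifiers of the count table. The symbols were grouped by the region each peptide is best known for: 14 hypothalamic, 3 striatal, 9 cortical and 7 of brainstem and other sites, with the 6 granins apart. Several of these genes are transcribed in more than 1 region, so the grouping is an aid to description.

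The study measured bulk messenger RNA with sequencing of brain RNA. Both genotypes carried a green fluorescent reporter driven by the Stra8 promoter (pStra8-GFP), and the series design states that fluorescent cells were sorted from hippocampi. KO animals lacked Stra8, a gene best known for starting meiosis in germ cells, and WT animals had it. The sources used here give no age, sex, number of animals or time for either group.

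Neuropeptides are made as long precursors, cut at basic residues by prohormone convertases, trimmed and amidated, and stored in dense-core vesicles. Granins are acidic proteins of the same vesicles that help to form and load them, and some are cut into peptides themselves. Magnocellular and lateral neurons of the hypothalamus make vasopressin, oxytocin, melanin-concentrating hormone and orexin. Projection neurons of the striatum make enkephalin, dynorphin and substance P, and interneurons of cortex and hippocampus make somatostatin, neuropeptide Y, cholecystokinin and vasoactive intestinal peptide.

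Total counts were 71097417 to 82172740 per library, with KO library 2 the lowest, and 28356 to 28801 genes had a read. Stra8 had 7 and 4 reads in the KO libraries, against 5 and 1 reads in the WT libraries, so its counts do not check the genotype labels. Every library held reads of both Xist and Y-linked genes, and their levels moved with genotype. Xist, which the inactive X chromosome of females transcribes, had 441 and 420 CPM in KO against 297 and 287 CPM in WT (log2 fold change 0.56, edgeR adjusted p = 1.79e-15). In the other direction 4 genes of the Y chromosome (Ddx3y, Eif2s3y, Kdm5d and Uty) fell, with log2 fold changes of -1.31 to -1.12, and Ddx3y had 11.9 and 11.6 CPM in KO against 27.9 and 28.1 CPM in WT. A different balance of female and male tissue and the genotype cannot be told apart in any of the KO to WT differences below. CPM is the count of a gene scaled by the size of its library after TMM scaling. Transcripts that mark regions outside the hippocampus were present in all 4 libraries, among them hypothalamic peptides, pituitary hormones and cerebellar genes, so the values below are those of the libraries as a whole. In such bulk libraries fewer cells of a type and less RNA per cell cannot be told apart.

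Of the 39 genes 37 passed the filter on low counts, 11 were higher in KO and 1, Pomc, was lower (edgeR's quasi-likelihood test with Benjamini-Hochberg adjustment over 21592 genes, threshold 0.05, n = 2 libraries per genotype). Among all tested genes 6.53% were called, 3.35% higher and 3.19% lower. Ordered by class, the genes called higher were Avp and Pmch (hypothalamic), Penk and Tac1 (striatal), Npy, Vip and Cck (cortical), and Vgf, Scg2, Scg5 and Chga (granins). The KO libraries lay above both WT libraries for 21 of the 37 and below them for 5. Over all tested genes those shares were 22.8% and 22.9%. The median log2 fold change was 0.11 over the 37 genes and -0.0004 over all tested genes. Rises were small, from 0.092 to 0.41 on the log2 scale. Nothing in the labels says that the libraries of a genotype come from separate animals, so p-values measure the spread between these libraries, which may be technical.

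**Figure D1:**
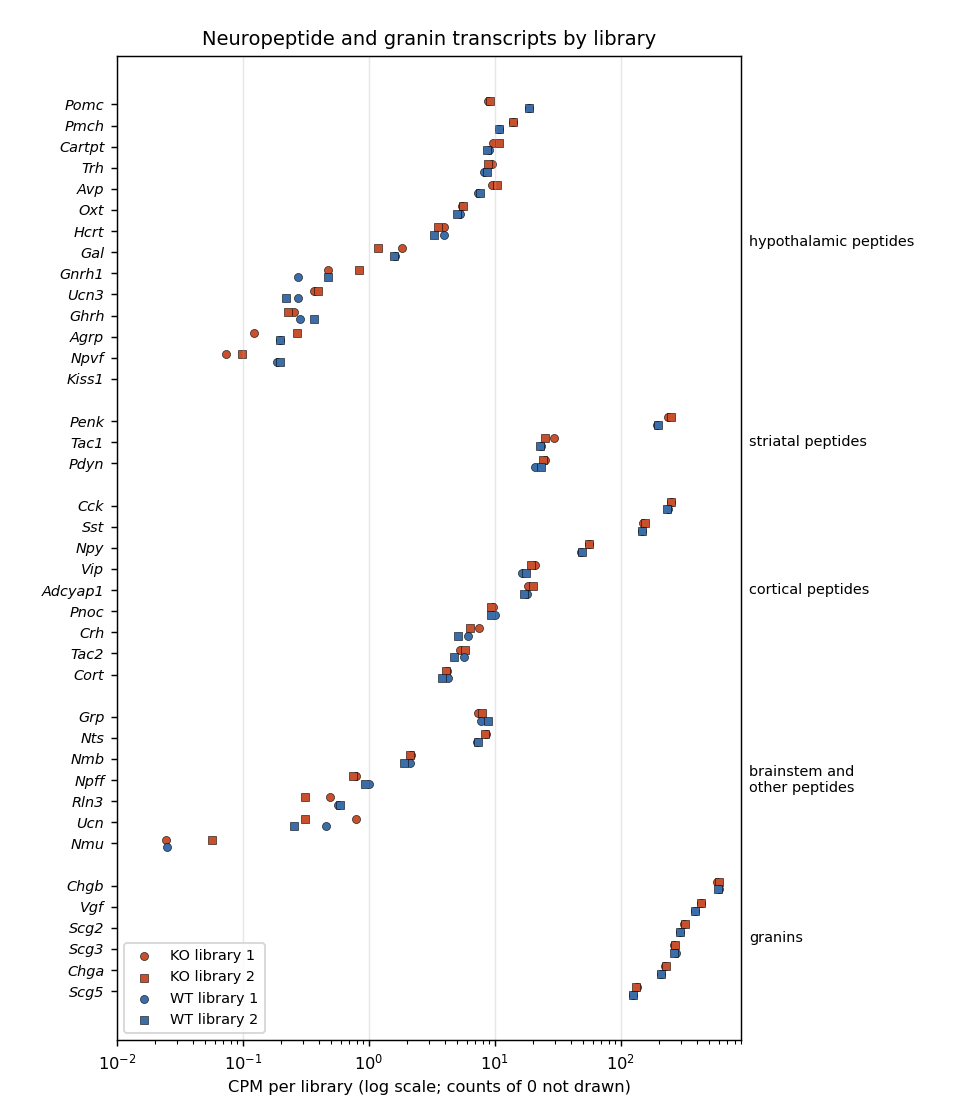
Level of each gene in each library in CPM on a log scale, grouped by class, with KO libraries in orange above WT libraries in blue. The levels span from Chgb at 576 to 601 CPM down to Kiss1 with 0 reads, and Pomc is the gene whose KO and WT points stand farthest apart among genes above 1 CPM.

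Calls were more frequent among the deeper counted genes. Of the 12 genes with a mean of at least 20 CPM, 8 were called higher and 0 lower. Of all tested genes with a mean of at least 20 CPM, 8.03% were called higher and 6.13% lower. Levels above that minimum were not matched, and 9 of the 12 lay above 100 CPM, with 6 of the 8 calls. None of the 12 was lower at an unadjusted edgeR p under 0.05, or called lower by DESeq2 or limma-trend. Of the 10 genes under 1 CPM 8 were tested, with 0 calls in edgeR and limma-trend and 1, Gnrh1, at an unadjusted edgeR p under 0.05. DESeq2 gave none of these 8 an adjusted p. Their standard errors were 0.255 to 0.646 on the log2 scale, against 0.015 to 0.023 for the 9 genes above 100 CPM.

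**Figure D2:**
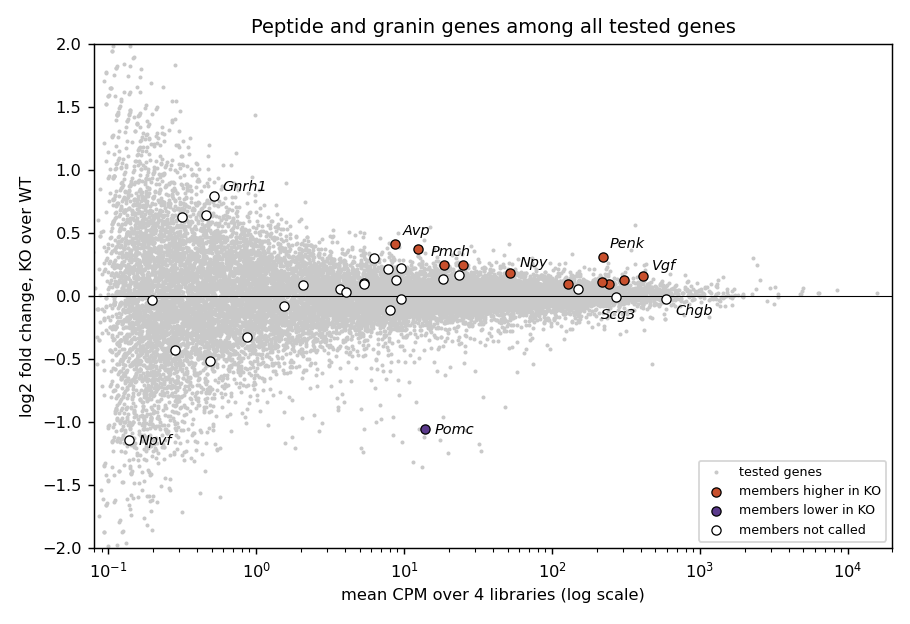
Log2 fold change (KO over WT) against mean CPM on a log scale for all tested genes (grey) and the 37 tested peptide and granin genes (circles). The genes called higher sit above 5 CPM, Pomc sits at -1.05, and genes under 1 CPM such as Npvf and Gnrh1 have large fold changes that did not pass; 24 tested genes lie outside the axes.

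Among the hypothalamic peptides, vasopressin and melanin-concentrating hormone transcripts were higher in KO, while oxytocin and orexin transcripts did not pass the test. Avp (ENSMUSG00000037727), the precursor of vasopressin, the hormone of water retention made by magnocellular neurons, had 9.55 and 10.3 CPM in the KO libraries, against 7.29 and 7.66 CPM in the WT libraries. The lower KO library was 24.8% above the higher WT library. Its log2 fold change was 0.41 (edgeR adjusted p = 0.00221, SE 0.084). Pmch (ENSMUSG00000035383), made by neurons of the lateral hypothalamus that act on feeding and sleep, had 14.05 and 13.98 CPM in KO, against 10.8 and 10.8 CPM in WT. Libraries of a genotype were nearly equal for this gene and the genotypes did not overlap, with a log2 fold change of 0.37 (edgeR adjusted p = 0.000789, SE 0.069).

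Oxt, the precursor of oxytocin and the chromosomal neighbour of Avp, had 5.47 and 5.58 CPM in KO and 5.24 and 5.01 CPM in WT. The genotypes did not overlap, but the log2 fold change of 0.11 (SE 0.101) did not pass (edgeR adjusted p = 0.674). The ratio of Avp to Oxt CPM was 1.75 and 1.85 in KO libraries and 1.39 and 1.53 in WT libraries. It was higher in both KO libraries, but 2 against 2 libraries cannot give an exact two-sided permutation p below 0.333, which is the value obtained. Hcrt, the orexin precursor of wake-promoting neurons that lie among the Pmch neurons, had 3.98 and 3.56 CPM in KO and 3.97 and 3.32 CPM in WT. The genotypes overlapped (log2 fold change 0.053, SE 0.128).

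Trh, the thyrotropin-releasing hormone precursor, had 9.58 and 8.89 CPM in KO and 8.24 and 8.73 CPM in WT, a log2 fold change of 0.12 (SE 0.083). Cartpt, a satiety peptide gene also transcribed in the nucleus accumbens, had 9.72 and 10.8 CPM in KO and 9.06 and 8.58 CPM in WT, a log2 fold change of 0.22 (edgeR adjusted p = 0.131, SE 0.082). Both lay higher in KO without overlap, and neither passed. Gal, the galanin gene, had 1.82 and 1.19 CPM in KO and 1.61 and 1.59 CPM in WT, so the WT pair fell between the KO pair.

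The remaining hypothalamic genes were near the limit of detection. Agrp, the hunger peptide of the arcuate nucleus, had 10 and 19 reads in KO and 16 and 16 in WT. Ghrh, the growth hormone-releasing hormone gene, had 21 and 16 reads in KO and 23 and 30 in WT. Gnrh1, which drives the gonadotropins, had 39 and 59 reads in KO and 22 and 39 in WT. Their adjusted p values lay between 0.286 and 0.989 in edgeR, so differences were not detectable at this depth. Npvf, an inhibitor of reproductive hormones, had 6 and 7 reads in KO and 15 and 16 in WT, with a log2 fold change of -1.14 (SE 0.646) that did not pass (edgeR adjusted p = 0.387). Ucn3, a stress peptide of the urocortin group, had 30 and 28 reads in KO and 22 and 18 in WT. Kiss1, the puberty peptide kisspeptin, had 0 reads in every library, which allows a level of up to 0.0423 CPM in KO library 2 and 0.0366 CPM in WT library 2. These limits cover counting error only.

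Pomc (ENSMUSG00000020660) was the gene of the set that fell. It encodes pro-opiomelanocortin, the precursor of corticotropin, melanocortins and beta-endorphin, made in the arcuate nucleus and, at far higher levels, in the pituitary. It had 8.83 and 9.23 CPM in the KO libraries, against 18.8 and 18.6 CPM in the WT libraries. The genotypes were far apart relative to their spread, and the fold change of 0.482 corresponds to a log2 fold change of -1.05 (edgeR adjusted p = 8.09e-11, SE 0.068). With any 1 library left out it ranged from -1.08 to -1.02. Anterior pituitary markers moved with it. Of 10 listed markers 3 passed the filter and 2 of these fell, and the list summed to 20.7 and 20.3 CPM in KO and 43.2 and 43.6 CPM in WT. Gh, the growth hormone gene, had 16.7 and 16.6 CPM in KO and 35.1 and 34.6 CPM in WT (log2 fold change -1.06, SE 0.050). Prl, the prolactin gene, had 3.47 and 2.65 CPM in KO and 6.67 and 7.56 CPM in WT. Cga, the shared hormone subunit, did not pass (log2 fold change -0.83, SE 0.315). Lhb was at 0 reads in 3 libraries and Tbx19, the corticotroph factor, had 6 and 8 reads in KO and 8 and 16 in WT. The part of these pituitary transcripts in the Pomc result was not tested.

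Hypothalamic genes that encode no peptide, such as transcription factors of its nuclei, were read beside them. Of 17 listed markers 1 rose (Baiap3), 1 fell (Prlr, which the choroid plexus also transcribes) and 15 did not pass, with a median log2 fold change of -0.029 and sums of 109 and 110.1 CPM in KO against 108 and 107 CPM in WT. Of 8 choroid plexus markers, a list that also holds Prlr, 5 fell and 3 did not pass, and the list summed to 452 and 444 CPM in KO against 647 and 644 CPM in WT. The part of these markers in the Prlr result was not tested. The 13 tested hypothalamic peptide genes had a median of 0.11, with 2 called higher, 1 lower and 10 not called. Their median depended on the libraries used, from 0.075 without WT library 2 to 0.14 without KO library 2. Summed over all 14 genes the class had 64.3 and 65.4 CPM in KO and 66.3 and 65.7 CPM in WT. Without Pomc, a choice made after its value was seen, the sums were 55.5 and 56.2 CPM in KO and 47.5 and 47.1 CPM in WT.

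**Figure D3:**
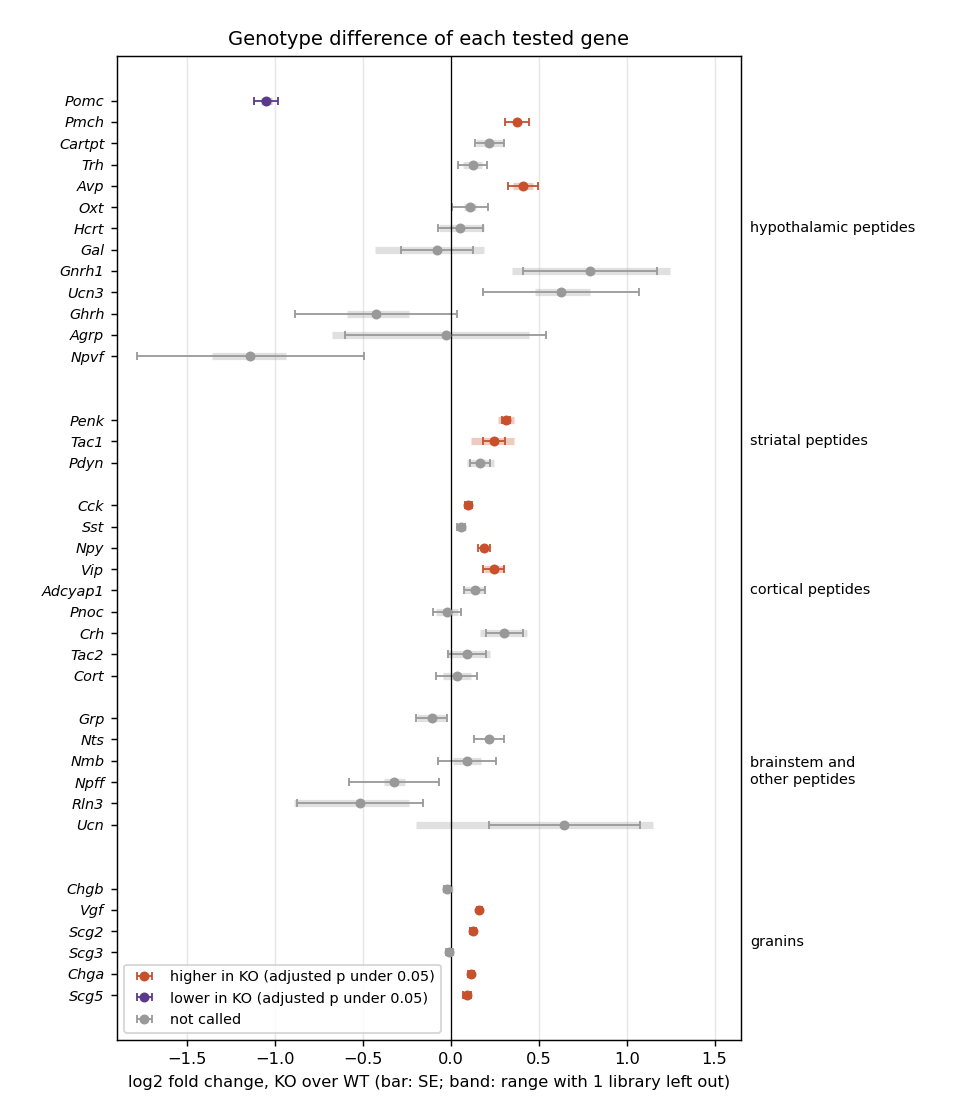
Log2 fold change (KO over WT) of the 37 tested genes by class, with bars for the standard error and pale bands for the range when 1 library is left out (n = 2 libraries per genotype). Orange points were called higher, the violet point (Pomc) lower, and grey points were not called; the band of Tac1 runs from 0.11 to 0.36 while that of Penk runs from 0.27 to 0.36.

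The striatal peptides lay higher in KO in all 3 genes, and 2 of them passed. Penk (ENSMUSG00000045573), the proenkephalin gene of striatal neurons of the indirect pathway, had 236 and 251 CPM in the KO libraries, against 195 and 197 CPM in the WT libraries. The genotypes were far apart relative to their spread, and the 1.24-fold rise had a log2 fold change of 0.31 (edgeR adjusted p = 8.16e-10, SE 0.023). It had the smallest adjusted p of the 11 rises. Tac1 (ENSMUSG00000061762), the substance P precursor of the direct pathway, had 29.4 and 24.9 CPM in KO and 23.4 and 22.6 CPM in WT. KO library 1 stood above the other 3, and the log2 fold change of 0.24 (edgeR adjusted p = 0.0132, SE 0.061) was 0.11 without KO library 1 (edgeR adjusted p = 0.406). Pdyn, the prodynorphin gene of the direct pathway and of dentate granule cells, had 25.2 and 24.3 CPM in KO and 20.9 and 23.2 CPM in WT. It did not pass (log2 fold change 0.17, SE 0.056, edgeR adjusted p = 0.0835), and leaving out 1 library moved it both ways, to 0.24 without WT library 2, where it passed (edgeR adjusted p = 0.0165), and to 0.093 without WT library 1 (edgeR adjusted p = 0.631).

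Markers of striatal projection neurons that encode no peptide were higher in the same libraries. Of 11 listed markers 10 rose and 1 did not pass, with a median log2 fold change of 0.29, and the list summed to 1001 and 982 CPM in KO and 844 and 845 CPM in WT. Pde10a, the striatal phosphodiesterase, had 249 and 245 CPM in KO and 213 and 213 CPM in WT. Drd1, the receptor of the direct pathway, rose by 0.40 and Adora2a, a receptor of the indirect pathway, by 0.36 on the log2 scale. The 3 striatal peptides had a median of 0.24, or 0.14 without KO library 1. Dentate granule cell markers, where Pdyn and Penk can also be transcribed, went down instead, with 7 of 8 lower, 0 higher and sums of 217 and 209 CPM in KO against 274 and 270 CPM in WT. The part of either set of markers in the peptide values was not tested.

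**Figure D4:**
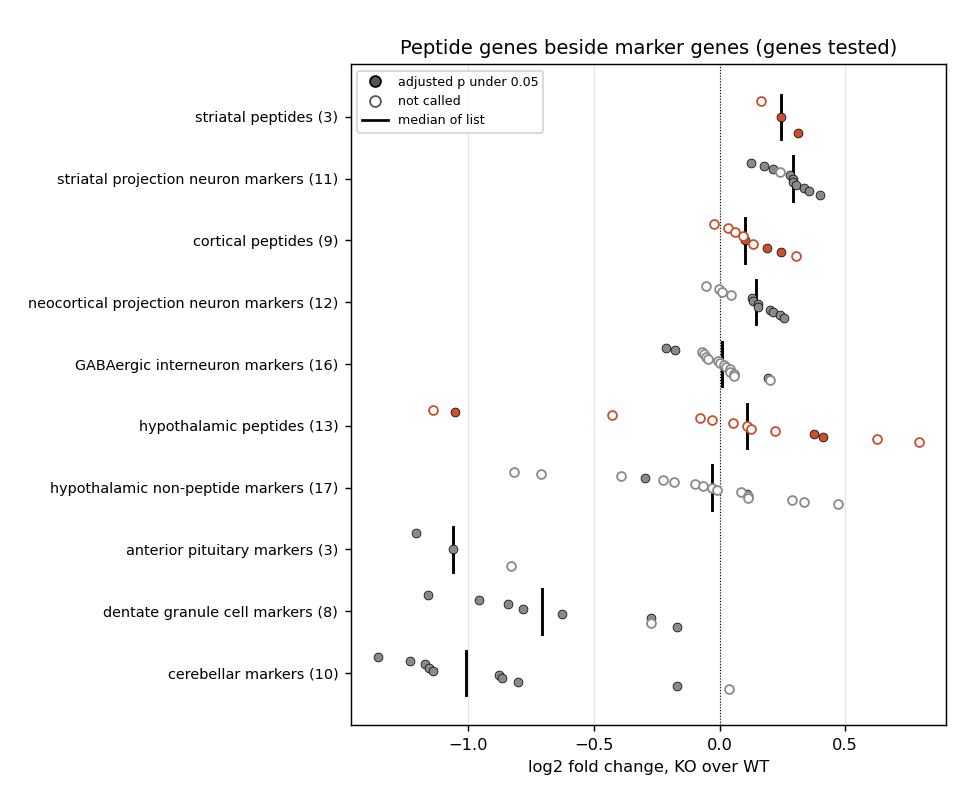
Log2 fold change (KO over WT) of each tested gene in the peptide classes (orange) and in marker lists (grey), with filled circles for adjusted p under 0.05 and black ticks for list medians. Striatal peptides sit at 0.17 to 0.31 beside striatal markers at 0.13 to 0.40, and the hypothalamic peptides spread from -1.14 to 0.79.

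Among the 9 cortical peptides 3 rose, 0 fell and 6 did not pass, with a median log2 fold change of 0.099. Npy (ENSMUSG00000029819), neuropeptide Y of cortical and hippocampal interneurons and of the arcuate nucleus, had 55.4 and 55.7 CPM in KO, against 48.6 and 49.0 CPM in WT. Pairs of a genotype were nearly equal, and the log2 fold change was 0.19 (edgeR adjusted p = 0.000601, SE 0.034). Cck (ENSMUSG00000032532), cholecystokinin, which cortical pyramidal cells and basket interneurons make, had 249 and 251 CPM in KO and 235 and 232 CPM in WT. This was a rise of 1.07-fold with a narrow error (log2 fold change 0.099, SE 0.018, edgeR adjusted p = 0.000593). Vip (ENSMUSG00000019772), the peptide of interneurons that inhibit other interneurons, had 20.7 and 19.5 CPM in KO and 16.3 and 17.7 CPM in WT. Its log2 fold change of 0.24 (edgeR adjusted p = 0.0133, SE 0.061) lost its call without KO library 1 (0.20, edgeR adjusted p = 0.117) and without WT library 1 (0.19, edgeR adjusted p = 0.190).

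Sst, somatostatin, the peptide of dendrite-targeting interneurons, had 149.6 and 156 CPM in KO and 146 and 147 CPM in WT. The KO libraries were higher without overlap by 2.07%, and the log2 fold change of 0.059 (SE 0.023) did not pass. It was 0.088 without KO library 1, where it passed (edgeR adjusted p = 0.0224), and 0.033 without KO library 2 (edgeR adjusted p = 0.654). Cort, cortistatin, a relative of somatostatin, had 4.14 and 4.08 CPM in KO and 4.24 and 3.80 CPM in WT, and the genotypes overlapped. Crh, the corticotropin-releasing hormone gene of cortical interneurons and of the hypothalamic stress axis, had 7.51 and 6.30 CPM in KO and 6.09 and 5.13 CPM in WT. It did not pass (log2 fold change 0.30, SE 0.107, edgeR adjusted p = 0.09996). It was called without KO library 2 (0.42, edgeR adjusted p = 0.00847) and without WT library 1 (0.43, edgeR adjusted p = 0.0170), but was 0.17 without KO library 1 (edgeR adjusted p = 0.588) and 0.19 without WT library 2 (edgeR adjusted p = 0.540).

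Adcyap1, the PACAP gene of cortical and other excitatory neurons, had 18.4 and 20.03 CPM in KO and 17.96 and 17.0 CPM in WT (log2 fold change 0.13, SE 0.061). Pnoc, the nociceptin precursor, had 9.74 and 9.25 CPM in KO and 10.1 and 9.24 CPM in WT. Tac2, the neurokinin B precursor, had 5.30 and 5.84 CPM in KO and 5.65 and 4.78 CPM in WT. The genotypes overlapped for Pnoc and Tac2 and not for Adcyap1, and none of these 3 passed. The median of the class was 0.16 without KO library 1 and 0.17 without WT library 1.

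Markers of the cells that could hold these peptides were read in the same libraries. Of 16 markers of GABAergic interneurons 1 rose, 2 fell (Calb2 and Pvalb) and 13 did not pass, with a median of 0.0093 and sums of 1094 and 1089 CPM in KO against 1101 and 1106 CPM in WT. Pvalb, the parvalbumin gene of fast-spiking interneurons and of Purkinje cells, had 42.5 and 41.1 CPM in KO and 48.2 and 48.7 CPM in WT. Of 12 markers of neocortical projection neurons 8 rose and 0 fell, with a median of 0.14 and sums of 990 and 981 CPM in KO against 913 and 920 CPM in WT. Their part in the cortical peptide values was not tested.

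Peptides of brainstem and other sites gave 0 calls in 6 tested genes in edgeR and limma-trend, with 1, Nts, at an unadjusted edgeR p under 0.05. DESeq2 gave an adjusted p for Nts and Grp alone and called neither. Their median log2 fold change was -0.0097, or -0.13 without KO library 1. Nts, neurotensin, had 8.44 and 8.40 CPM in KO and 7.16 and 7.32 CPM in WT, higher in KO without overlap but not past the test (log2 fold change 0.22, SE 0.085, edgeR adjusted p = 0.151). Grp, the gastrin-releasing peptide gene, had 7.403 and 7.93 CPM in KO and 7.77 and 8.75 CPM in WT. Nmb, neuromedin B, had 2.15 and 2.10 CPM in KO and 2.11 and 1.89 CPM in WT, and both overlapped between genotypes. Ucn, the urocortin gene of the Edinger-Westphal nucleus, had 65 and 22 reads in KO and 37 and 21 in WT. Rln3, relaxin-3 of the nucleus incertus, had 40 and 22 reads in KO and 46 and 48 in WT. Npff, neuropeptide FF, had 65 and 53 reads in KO and 81 and 76 in WT. Nmu, neuromedin U, had 2 and 4 reads in KO and 2 and 0 in WT, and was not tested.

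Granins carried most of the counts of the set, with sums of 1953 and 1992 CPM in KO and 1893 and 1877 CPM in WT. Of these 6 genes 4 rose and 2 did not pass, with a median log2 fold change of 0.10. Vgf (ENSMUSG00000037428), a granin-like precursor that neurotrophins and activity induce, had 436 and 435 CPM in KO and 391 and 389 CPM in WT. Libraries of a genotype differed far less than the genotypes did (log2 fold change 0.16, SE 0.015, edgeR adjusted p = 6.24e-08). Scg2 (ENSMUSG00000050711), secretogranin II, the precursor of secretoneurin, had 318 and 325 CPM in KO and 297 and 293 CPM in WT (log2 fold change 0.12, SE 0.017, edgeR adjusted p = 2.40e-05). Chga (ENSMUSG00000021194), chromogranin A, had 225 and 228 CPM in KO and 210.3 and 208 CPM in WT (log2 fold change 0.11, SE 0.019, edgeR adjusted p = 0.000188). These 3 rises were called with any 1 library left out.

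Scg5 (ENSMUSG00000023236), the 7B2 protein that chaperones prohormone convertase PC2, had 133 and 132 CPM in KO and 124 and 126 CPM in WT. The log2 fold change was 0.092 (edgeR adjusted p = 0.0111, SE 0.023), and the call was lost without WT library 1 (0.083, edgeR adjusted p = 0.106). Chgb, chromogranin B, the most abundant gene of the set by CPM, had 576 and 601 CPM in KO and 598 and 596 CPM in WT. Its genotypes overlapped, with a log2 fold change of -0.021 (edgeR adjusted p = 0.604, SE 0.017). Scg3, secretogranin III, which ties granins to the vesicle membrane, had 265 and 270.3 CPM in KO and 274 and 265 CPM in WT, again with overlap (log2 fold change -0.0092, SE 0.019). The ratio of Vgf to Chgb was 0.758 and 0.724 in KO libraries and 0.654 and 0.653 in WT libraries. Its exact two-sided permutation p was 0.333, the smallest that 2 against 2 libraries allow, so the test cannot decide. Penk over Pdyn, also computed, was 9.348 and 10.3 in KO and 9.305 and 8.47 in WT (exact permutation p = 0.333). Tac1 over Pdyn overlapped, with 1.17 and 1.02 in KO and 1.12 and 0.974 in WT (exact permutation p = 0.667).

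Promoter sequences, available for 31 of the 39 genes from RefSeq on the GRCm38.p6 build (the counts were made on another build), were searched because genes of this family are known targets of the cyclic AMP response element. The 300-base windows run from 250 bases before to 50 after the gene start, and both strands were searched. The palindrome TGACGTCA was in the windows of 5 genes (Cartpt, Sst, Ucn, Scg2 and Chgb), of which 1, Scg2, was called higher, and in 1.79% of all 32851 windows. Its shorter core TGACG, which that palindrome contains, was in 19 of the 31, of which 6 were called higher, and in 20.8% of all windows. Over the 37 tested peptide and granin genes, with or without a window, 29.7% were called higher. A link between these motifs and the calls was not tested. TATAAA was in 9 of the 31 and in 13.6% of all windows. Shown first are 4 windows that hold the palindrome, in capitals, from 1 gene that rose and 3 that did not pass, followed by that of Pomc, the gene that fell, with TATAAA in capitals. A match is a description of the letters and no evidence of binding.
Scg2 promoter, chr1:79439977-79440276, minus strand: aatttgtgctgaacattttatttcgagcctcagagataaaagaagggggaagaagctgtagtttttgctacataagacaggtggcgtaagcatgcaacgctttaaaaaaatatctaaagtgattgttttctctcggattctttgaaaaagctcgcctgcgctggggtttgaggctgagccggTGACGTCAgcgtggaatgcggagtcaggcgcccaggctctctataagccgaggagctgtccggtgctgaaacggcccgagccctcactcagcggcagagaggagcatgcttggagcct
Sst promoter, chr16:23890795-23891094, minus strand: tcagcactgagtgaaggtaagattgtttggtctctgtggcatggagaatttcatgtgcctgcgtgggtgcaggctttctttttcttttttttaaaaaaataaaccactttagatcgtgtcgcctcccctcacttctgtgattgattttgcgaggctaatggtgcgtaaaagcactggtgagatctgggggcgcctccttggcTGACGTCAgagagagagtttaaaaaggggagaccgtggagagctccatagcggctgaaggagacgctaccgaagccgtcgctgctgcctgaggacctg
Chgb promoter, chr2:132781392-132781691, plus strand: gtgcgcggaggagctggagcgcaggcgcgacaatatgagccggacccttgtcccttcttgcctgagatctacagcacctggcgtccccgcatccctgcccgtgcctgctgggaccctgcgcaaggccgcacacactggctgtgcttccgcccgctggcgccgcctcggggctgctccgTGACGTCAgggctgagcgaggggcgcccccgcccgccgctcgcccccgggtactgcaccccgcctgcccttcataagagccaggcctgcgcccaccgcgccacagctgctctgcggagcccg
Cartpt promoter, chr13:99900634-99900933, minus strand: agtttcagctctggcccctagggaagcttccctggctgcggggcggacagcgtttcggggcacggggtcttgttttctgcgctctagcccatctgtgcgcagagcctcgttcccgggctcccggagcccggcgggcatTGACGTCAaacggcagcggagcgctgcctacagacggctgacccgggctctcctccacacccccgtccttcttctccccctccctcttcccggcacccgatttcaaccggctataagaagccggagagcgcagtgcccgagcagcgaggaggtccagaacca
Pomc promoter, chr12:3954695-3954994, plus strand: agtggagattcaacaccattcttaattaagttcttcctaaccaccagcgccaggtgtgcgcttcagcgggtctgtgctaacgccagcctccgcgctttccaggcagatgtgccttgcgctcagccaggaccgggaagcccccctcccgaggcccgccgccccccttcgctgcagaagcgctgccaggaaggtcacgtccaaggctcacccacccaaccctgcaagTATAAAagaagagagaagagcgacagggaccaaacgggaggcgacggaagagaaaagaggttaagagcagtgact
The palindrome began 68 bases before the start in Scg2, 72 in Chgb, 48 in Sst and 112 in Cartpt. The log2 fold changes were 0.12 for Scg2 (SE 0.017), -0.021 for Chgb (SE 0.017), 0.059 for Sst (SE 0.023) and 0.22 for Cartpt (SE 0.082). The part of the motif or its distance in these values was not tested.

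Enzymes that cut and finish the precursors gave calls in both directions, with a median log2 fold change of 0.0005. Of 21 tested, 2 were higher (9.52%) and 2 lower (9.52%), where 3.35% and 3.19% of all tested genes were. Among all tested genes with a mean of at least 20 CPM, 8.03% were called higher and 6.13% lower. Pcsk2, the convertase PC2 that Scg5 chaperones, had 341 and 340 CPM in KO and 313 and 314 CPM in WT (log2 fold change 0.12, SE 0.016, edgeR adjusted p = 1.78e-05). Pcsk1, the convertase PC1/3, had 50.3 and 50.7 CPM in KO and 46.7 and 45.1 CPM in WT (log2 fold change 0.14, SE 0.036, edgeR adjusted p = 0.0169). Both neuronal convertases were thus higher without overlap. Pcsk6, a convertase of the constitutive pathway, fell by 0.25 and Lnpep, a peptidase that degrades oxytocin and vasopressin, by 0.11 on the log2 scale. Cpe, the carboxypeptidase that trims nearly all neuropeptides, had 1927 and 1920.3 CPM in KO and 1921 and 1926 CPM in WT, and Pam, the amidating enzyme, had 183 and 179 CPM in KO and 176 and 175 CPM in WT. Neither passed.

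Of 20 proteins of dense-core vesicles and their release 4 rose (20%), 1 fell (5%) and 15 did not pass. Their median log2 fold change was 0.013. Of all tested genes 3.35% were called higher and 3.19% lower, or 8.03% and 6.13% of those with a mean of at least 20 CPM. Baiap3 is among the 4 rises of this list and is also the rise of the hypothalamic marker list. Slc18a2 is in both lists too. Ptprn, the vesicle membrane protein IA-2, had 711 and 714 CPM in KO and 671 and 668 CPM in WT (log2 fold change 0.090, SE 0.014, edgeR adjusted p = 6.88e-05). Rph3a, a Rab3 effector, rose by 0.080 and Ptprn2 by 0.065, while Cadps2, a priming factor for dense-core vesicles, fell by 0.091. The Cadps2 transcript is abundant in cerebellar granule cells, and cerebellar markers were lower in 9 of 10 cases, with sums of 246 and 243 CPM in KO against 391 and 395 CPM in WT. Calb1, which fell, is counted in this list and in the dentate granule cell list. The part of these markers in the Cadps2 result was not tested.

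Of 42 tested receptors of the peptides 2 were called higher (4.76%) and 1 lower (2.38%), where 3.35% and 3.19% of all tested genes were. Cckbr, the cortical receptor of cholecystokinin, had 51.2 and 53.5 CPM in KO and 40.4 and 43.1 CPM in WT (log2 fold change 0.33, SE 0.039, edgeR adjusted p = 3.33e-06). Vipr1, a receptor of vasoactive intestinal peptide, had 30.2 and 32.1 CPM in KO and 27.8 and 27.1 CPM in WT (log2 fold change 0.18, SE 0.048, edgeR adjusted p = 0.0200). Cckar and Vipr2, which bind the same ligands, did not pass, with log2 fold changes of 0.18 for Cckar and 0.028 for Vipr2 and overlapping genotypes for both. Nor did Mchr1 (-0.061), Npy1r (0.028), Tacr1 (0.10) and Oprd1 (-0.017), receptors of other peptides whose genes rose. Npy2r, the presynaptic receptor of neuropeptide Y, had 10.5 and 10.3 CPM in KO and 13.6 and 13.1 CPM in WT, lower in KO without overlap (log2 fold change -0.36, SE 0.071, edgeR adjusted p = 0.00148). Npffr1, a receptor of neuropeptide FF, had a log2 fold change of -0.40 (SE 0.133) and did not pass. Avpr1a, a vasopressin receptor, did not pass, with 0.757 and 0.579 CPM in KO and 0.831 and 0.902 CPM in WT. Avpr1b, the vasopressin receptor of pituitary corticotrophs, had 4 and 2 reads in KO and 18 and 6 in WT and was not tested. Oxtr, the oxytocin receptor, had 9.70 and 9.34 CPM in KO and 9.41 and 10.3 CPM in WT.

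**Figure D5:**
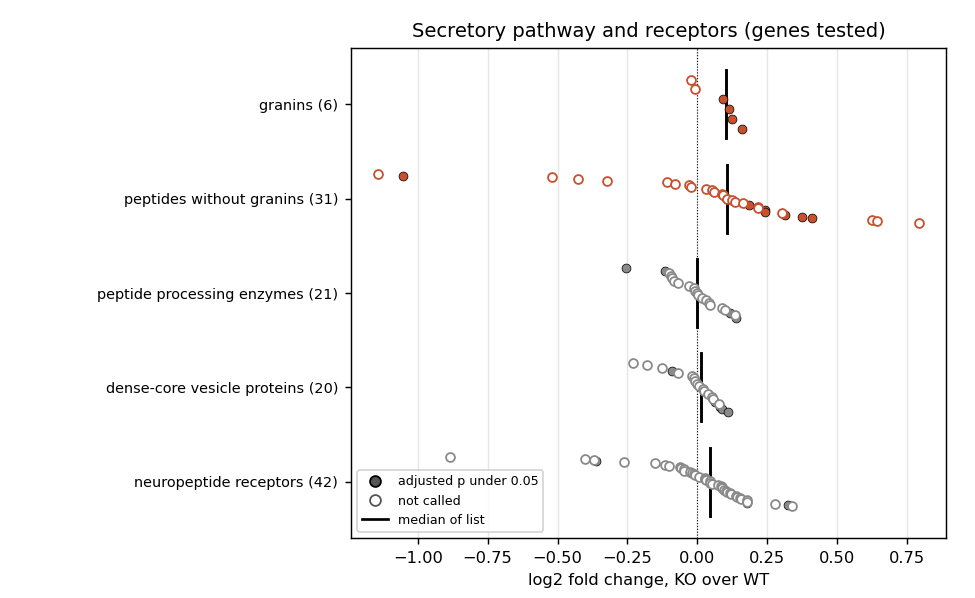
Log2 fold change (KO over WT) of each tested gene among granins and peptides (orange) and among processing enzymes, dense-core vesicle proteins and receptors (grey), with filled circles for adjusted p under 0.05 and black ticks for medians. Granins have a median of 0.10, and the 3 grey lists have medians from 0.0005 to 0.046 with most circles open.

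Levels between genes were compared per kilobase of annotated exon (GENCODE M21, an annotation of another build than that of the counts). Chgb had 215 CPM per kilobase in KO and 218 in WT, and Sst had 212 in KO and 203 in WT. Chgb lay above Sst within every library, and their values overlapped between the KO libraries but not between the WT libraries. Cck followed with 192 CPM per kilobase in KO and 179 in WT. Vgf, Penk and Scg2 came next at 128 to 149 CPM per kilobase in KO and 117 to 131 in WT. Vgf and Penk overlapped in the KO libraries, while Vgf was higher in both WT libraries. Penk lay above Scg2 in every library. Scg3, Npy, Scg5 and Chga lay between 82.1 and 98.2 CPM per kilobase in KO. The highest hypothalamic gene, Pmch, had 18.7 CPM per kilobase in KO and 14.4 in WT, followed by Avp with 17.2 in KO and 12.95 in WT. Pomc changed its place in the order, with 6.85 CPM per kilobase in KO and 14.2 in WT. In WT its mean lay above Avp and Oxt, and in KO below both and also below Pdyn, Cartpt and Tac1.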

How the data were processed

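The deposited values are raw read counts per gene for 4 mouse libraries (2 KO, 2 WT). The submitters' processing notes name GRCm39 and, without roles, STAR 2.6.1c, featureCounts, DESeq2 and FastQC; strand setting and annotation release are not stated there. Between 72.8% and 74.3% of low counts (1 to 20) were even, so both mates of a pair appear to be counted and counting limits are too narrow. Symbols matched 52081 of 55414 identifiers. In R 4.3.3, genes passing filterByExpr (minimum count 10) were scaled by TMM and tested with edgeR 4.0.16 (glmQLFit, glmQLFTest), with genotype as the only term. Checks on simulated data called 22% of 50 genes changed 1.1-fold in the right direction, and 62% of 50 changed 1.2-fold. They called 96% of 50 changed 1.5-fold, 100% of 50 changed 2-fold, and also 27 unchanged genes. SE is the log2 fold change over the root of F. The genes, classes and lists were chosen with earlier results of these data known. All 39 genes are named; of other lists, the text draws on the 4 with the smallest p, and further genes (among them Adora2a, Cga, Tbx19, Cpe, Pam, Avpr1a, Avpr1b, Oxtr and 6 other receptors) were chosen after their values were seen; some marker genes are not reported here. Alternatives used DESeq2 1.42.0, limma 3.58.1, other scalings, filters and a block.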

Additional observations from a re-analysis of the deposited data

How the results depend on the processing

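Of 15 alternative settings, the number of peptide and granin genes called higher ranged from 10 to 13, against 11, and Pomc was the 1 gene called lower in each. The 8 genes called higher in every setting were Avp, Pmch, Penk, Npy, Cck, Vgf, Scg2 and Chga, and none of the 12 called genes changed sign. With 1 library left out, 10 to 12 genes were called higher and 1 lower; the lone library is then assumed to vary like the other genotype's. With every library kept, class medians moved by more than the spread between libraries in these cases. Granins gave 0.093 with library size alone, and hypothalamic peptides 0.12 with halved counts. Brainstem and other peptides gave 0.089 with no filter (against -0.0097, since Nmu then enters). With 1 library left out, medians ranged from 0.075 to 0.14 (hypothalamic), 0.14 to 0.27 (striatal), 0.075 to 0.17 (cortical), -0.13 to -0.0036 (brainstem and other) and 0.101 to 0.106 (granins). These ranges went beyond that spread in every class but the granins. The replicate numbers are shared between genotypes, but nothing ties them to a litter or day, and deviations of same-numbered libraries correlated at 0.025 over 21592 genes and at 0.496 over the 37 tested peptide and granin genes. With the replicate block 12 genes were called higher and 1 lower, Crh being the addition (edgeR adjusted p = 0.0474). Library size alone shifted the median of all genes to -0.0099. Genes under 1 CPM are limited by depth.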
